A study of Phaseolus vulgaris with 18 samples.

Results

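The comparison is of bean pod at 20 days after flowering (DAF) with pod at 15 DAF, across every gene with at least 1 TPM (transcript abundance scaled within a library) in at least 3 of the 6 pod libraries of these stages. This rule kept 17208 of the 27420 genes listed. The plant was Phaseolus vulgaris (common bean) labelled 4004, with 3 libraries at each stage, taken from a series of 18 libraries of pod and grain at 10, 15 and 20 DAF. DAF is read as days after flowering, since the labels give the abbreviation alone. No treatment or genetic change is named for either stage. The labels do not say whether replicates came from separate plants, and p-values therefore cover the spread of these samples alone, of which part may be technical. Nor do they say whether seeds were removed from the pod. The storage cupins that fill bean grain summed to between 15.5 and 72.6 TPM at 15 DAF and between 22.3 and 47.2 TPM at 20 DAF in the pods, and to at least 82540 TPM in each grain library of those stages.

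The bean pod is a fruit wall around the seeds. In its early life the wall grows by expansion, stays green and fixes carbon, and it lays down thick-walled fibre and dehiscence tissue. It later becomes a source of sugars and nitrogen for the filling seeds, loses its chlorophyll and dries. Wall loosening depends on expansins and on xyloglucan endotransglucosylase/hydrolases (XTH), which cut and rejoin the xyloglucan chains that tie cellulose fibrils together. Stiff secondary walls are built from cellulose, xylan and lignin.

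On the deposited values 253 genes rose (1.47% of those tested) and 126 fell (0.732%), by limma's moderated test over all 18 libraries (adjusted p under 0.05, log2 difference 1 or more in size). Log2 differences are of log2(TPM + 1), 20 minus 15 DAF, with standard errors, and understate the change of genes at low levels. The deposited column of replicate 3 at 15 DAF summed to 436072 TPM, whereas the other 5 summed to between 895916 and 990278 TPM. After median-ratio scaling of the columns the split turned to 166 higher (0.965%) and 387 lower (2.25%). The median log2 difference over all genes tested was 0.33 as deposited and 0.03 after scaling, so a gene's difference is best read against that of the same scale. Both scales shared 162 genes called higher and 124 called lower, while 91 genes were called higher on deposited values alone and 263 lower on scaled values alone. Read depth cannot be told from TPM.

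Replicate 2 at 20 DAF stood apart from the other libraries, with correlations of log2(TPM + 1) across genes between 0.845 and 0.900 with them, against at least 0.898 among the rest. Without it 187 genes were higher (1.09%) and 66 lower (0.384%). A total of 110 genes higher (0.639%) and 58 lower (0.337%) were called on deposited values, on scaled values and without that library, and the account below rests mainly on them. Of these, 62 higher and 37 lower were also called in a fit of the 9 pod libraries alone. The libraries of the stages did not overlap for 12.5% of genes in the higher and 2.43% in the lower direction as deposited, and for 11.5% and 13.3% after scaling. The highest value of the 6 libraries lay in replicate 2 for 133 of the 253 genes called higher. The lowest value lay there for 65 of the 126 called lower. Neither was counted for the other libraries or over all genes tested. Leaving out other libraries also moved the counts: higher calls ran from 89 without replicate 3 at 15 DAF to 1167 without replicate 1 at 15 DAF, and lower calls from 46 without replicate 2 at 15 DAF to 205 without replicate 3 of either stage. Values are given below in the order of replicates 1, 2 and 3, and a gene said to hold in every leave-one-out fit passed the test in each of the 6 fits that omit one of these libraries. Those fits used deposited values and took the spread from pod and grain libraries together. In the 9 pod libraries alone 54 of the 95 calls of genes named in this text remained, and 28 after scaling. With scaling and without replicate 2 of 20 DAF together, 66 of the 95 calls of genes named in this text remained.

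**Figure D1:**
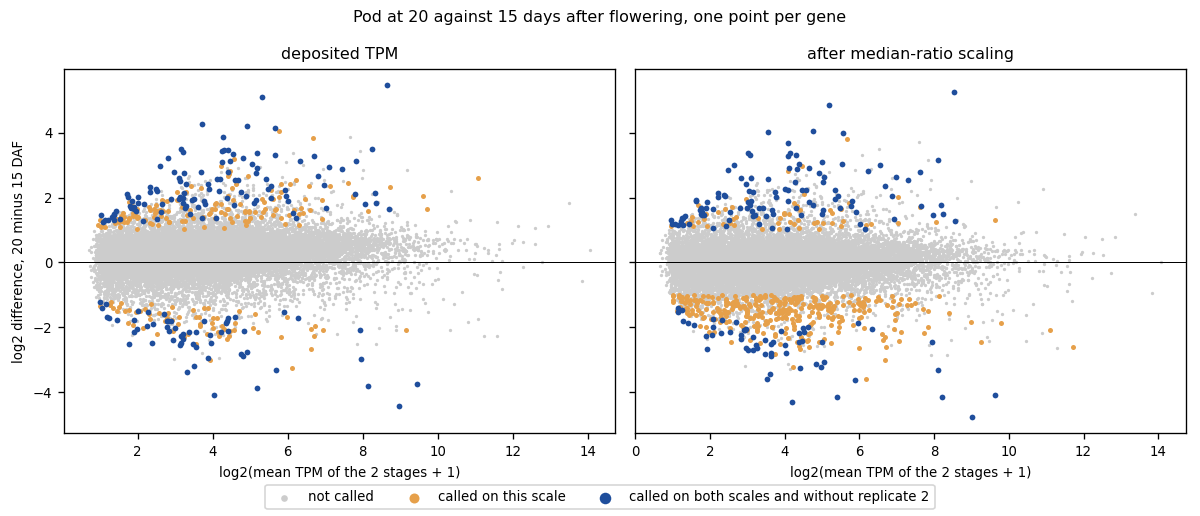
Each point is 1 of 17208 genes, with mean level across (log2 of mean TPM + 1) and the log2 difference of 20 minus 15 DAF up, for deposited TPM (left) and after median-ratio scaling (right). Blue genes, 110 higher and 58 lower, were called on both scales and without replicate 2 of 20 DAF, and the orange genes below zero are far more numerous after scaling.

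Genes for wall loosening were among those that rose. Of 23 xyloglucan remodelling genes tested, 6 rose and none fell on deposited values, 5 rose and 1 fell after scaling, and 5 rose without replicate 2 of 20 DAF. Their median log2 difference was 0.45 (scaled 0.25). XTH23 (Phvul.009G233200), named after its Arabidopsis match, had 74.1, 41.8 and 18.0 TPM at 15 DAF and 410.2, 237 and 253 TPM at 20 DAF. Every library of the later stage was above every earlier one, and the log2 difference was 2.89 ± 0.48 (adjusted p = 0.0035, scaled difference 2.55 ± 0.48). A second XTH23 (Phvul.003G137600) went from 9.38, 1.84 and 1.13 TPM to 47.5, 53.1 and 14.5 TPM. Its stages did not overlap either, although replicate 3 lay lowest at both, and the log2 difference was 3.11 ± 0.56 (adjusted p = 0.0056).

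XTH22 (Phvul.003G147700), which matches the touch-induced Arabidopsis TCH4, had 8.20, 0.755 and 0.758 TPM at 15 DAF and 17.0, 27.9 and 17.2 TPM at 20 DAF. Replicate 1 carried most of the early signal, and the later libraries were all higher (log2 difference 2.79 ± 0.50, adjusted p = 0.0056). XTH5 (Phvul.001G098200) had 4.60, 5.07 and 1.91 TPM and then 11.5, 42.9 and 56.8 TPM, a log2 difference of 2.77 ± 0.52 (adjusted p = 0.0073). The neighbouring identifier Phvul.001G098300, also described as XTH5, rose from 0.776, 0 and 0.074 TPM to 1.79, 5.41 and 5.91 TPM. These 5 genes held in every leave-one-out fit. On scaled values without replicate 2 of 20 DAF the XTH5 genes were not called (adjusted p = 0.09 for Phvul.001G098200 and 0.062 for Phvul.001G098300). A further XTH23 (Phvul.003G147400) had 9.34, 0.739 and 2.64 TPM and then 11.3, 81.6 and 21.8 TPM, with most of its later signal in replicate 2, and its adjusted p went from 0.027 to 0.11 without that library, to 0.13 without replicate 2 of 15 DAF and to 0.093 without replicate 3 of 15 DAF. How far reads were shared between similar copies is not known.

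Of the 15 expansins tested 2 rose and none fell on deposited values, and 1 rose after scaling. EXLB1 (Phvul.003G224800), an expansin-like protein, was at 0.883, 0 and 0 TPM at 15 DAF and at 5.42, 27.7 and 13.3 TPM at 20 DAF. It went from near 0 to a clear signal in every library, with a log2 difference of 3.48 ± 0.41 (adjusted p = 0.00029), and held in every leave-one-out fit. EXPA15 (Phvul.002G083600), an alpha-expansin, was far more abundant, with 79.9, 264 and 85.9 TPM and then 907, 282 and 919 TPM. Replicates 1 and 3 of 20 DAF were high, while replicate 2 lay just above the highest early library. The log2 difference of EXPA15 was 2.33 ± 0.56 (adjusted p = 0.032, after scaling 0.0501, without replicate 2 of 20 DAF 0.011). Its call was also lost without replicate 1 of 15 DAF (0.0539), replicate 3 of 15 DAF (0.12) and replicates 1 or 3 of 20 DAF (0.086 and 0.081). The median of the expansins was 0.23 (scaled -0.05), below that of all genes tested on both scales. EXO (Phvul.008G176000), a member of the EXORDIUM family tied to cell expansion in Arabidopsis, rose from 15.7, 8.05 and 2.35 TPM to 48.3, 91.3 and 47.3 TPM (log2 difference 2.92 ± 0.57, adjusted p = 0.0095), and its adjusted p was 0.059 without replicate 3 of 15 DAF.

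Genes tied to secondary walls were among those that fell. Among 21 fasciclin-like arabinogalactan proteins tested, 4 fell and none rose on deposited values, after scaling and without replicate 2 of 20 DAF, and the median was -0.38 (scaled -0.71). All 4 are described as FLA11, a glycoprotein of secondary walls in Arabidopsis stems. FLA11 (Phvul.011G077700) had 16.6, 18.9 and 15.9 TPM at 15 DAF and 0.079, 0.788 and 1.81 TPM at 20 DAF. As deposited, the early libraries were close together and the later ones near 0, a log2 difference of -3.37 ± 0.46 (adjusted p = 0.0009). A second copy (Phvul.006G172100) went from 23.6, 19.7 and 12.8 TPM to 0.094, 0.235 and 5.73 TPM (log2 difference -3.20 ± 0.49, adjusted p = 0.0017). Replicate 3 of 20 DAF kept the most signal of the later libraries in all 4 copies. The third copy (Phvul.011G077000) went from 7.30, 14.2 and 19.2 TPM to 0, 1.03 and 5.29 TPM, and its adjusted p of 0.0082 became 0.0507 without replicate 3 of 15 DAF. The fourth (Phvul.002G241700) had 1.91, 1.72 and 21.5 TPM at 15 DAF, mostly in replicate 3, and was at or near 0 at 20 DAF (log2 difference -2.47 ± 0.53, adjusted p = 0.016). On scaled values without replicate 2 of 20 DAF its adjusted p was 0.11.

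A few enzymes that decorate xylan and other wall polysaccharides fell too, as did an arabinogalactan protein and a glycosyl hydrolase. GUX1 (Phvul.009G148800), which adds glucuronic acid to xylan in Arabidopsis, had 19.0, 16.7 and 5.97 TPM and then 0.153, 1.53 and 3.94 TPM. Its stages did not overlap, with the narrowest gap in replicate 3, and the log2 difference was -2.47 ± 0.44 (adjusted p = 0.0057). A DUF579 protein (Phvul.001G262300), of a family with xylan-methylating members in Arabidopsis, fell from 19.8, 13.6 and 9.05 TPM to 0.618, 1.38 and 4.79 TPM (log2 difference -2.37 ± 0.37, adjusted p = 0.0018). TBL42 (Phvul.005G077200), of the trichome birefringence-like family that acetylates wall polysaccharides, fell from 50.4, 62.9 and 37.7 TPM to 2.40, 5.71 and 16.9 TPM (log2 difference -2.76 ± 0.50, adjusted p = 0.0063). The arabinogalactan protein AGP14 (Phvul.001G111400) fell from 50.9, 149.8 and 73.9 TPM to 7.53, 2.94 and 17.1 TPM, a log2 difference of -3.30 ± 0.58 (adjusted p = 0.0047). It also fell in grain, from a mean of 71.9 ± 45.3 TPM to 3.61 ± 1.81 TPM (log2 difference -3.88). A family 17 glycosyl hydrolase (Phvul.008G213400), a class that includes beta-glucanases, fell from 43.9, 89.0 and 57.9 TPM to 0.839, 1.25 and 17.8 TPM (log2 difference -3.86 ± 0.58, adjusted p = 0.0015). Its mean was highest at 10 DAF, at 260 ± 48.8 TPM. These 5 genes and the first 2 FLA11 copies held in every leave-one-out fit.

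Over the 16 secondary wall cellulose and xylan genes tested, 1 fell on deposited values (GUX1), 2 fell after scaling and none rose, with a median of -0.56 (scaled -0.88). The laccase LAC4 (Phvul.008G226700), which polymerises lignin in Arabidopsis, had 29.9, 30.4 and 12.2 TPM at 15 DAF and 6.56, 4.58 and 7.54 TPM at 20 DAF. The stages did not overlap, and the log2 difference was -1.72 ± 0.38 (adjusted p = 0.02), but the adjusted p was 0.067 without replicate 2 of 20 DAF and 0.088 without replicate 2 of 15 DAF. SHP1 (Phvul.006G034400), a MADS-box factor that lays out the dehiscence zone of the Arabidopsis fruit, had 178, 227 and 68.7 TPM and then 52.1, 19.3 and 35.7 TPM. Each later library was below each earlier one, with a log2 difference of -2.06 ± 0.46 (adjusted p = 0.023, scaled 0.0021). Without replicate 2 of 20 DAF the adjusted p of SHP1 was 0.094, and without replicate 2 of 15 DAF it was 0.11. SHP1 was the member called among 23 MADS-box genes tested. A second DUF579 gene (Phvul.005G001400) went from 44.2, 30.7 and 18.7 TPM to 0.935, 4.07 and 19.9 TPM, overlapping in replicate 3, and its adjusted p of 0.024 was 0.065 without replicate 2 of 20 DAF, 0.075 without replicate 1 of 20 DAF and 0.07 without replicate 2 of 15 DAF. Lignin and phenylpropanoid genes had no common direction, since 2 of 22 rose and 1 fell (median 0.42, scaled 0.15). The risers were CCR1 (Phvul.010G160700), which makes the aldehydes of lignin monomers, with a log2 difference of 1.39 ± 0.34 (adjusted p = 0.037), and ferulate 5-hydroxylase (Phvul.004G159900), with 1.38 ± 0.32 (adjusted p = 0.03). CCR1 lost the call without replicate 2 of 20 DAF (0.13), ferulate 5-hydroxylase after scaling (0.071) and without replicate 1 of 20 DAF (0.1), and both without replicates 2 or 3 of 15 DAF (up to 0.14). These are bulk samples, so fewer cells of a type and less RNA per cell cannot be told apart.

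**Figure D2:**
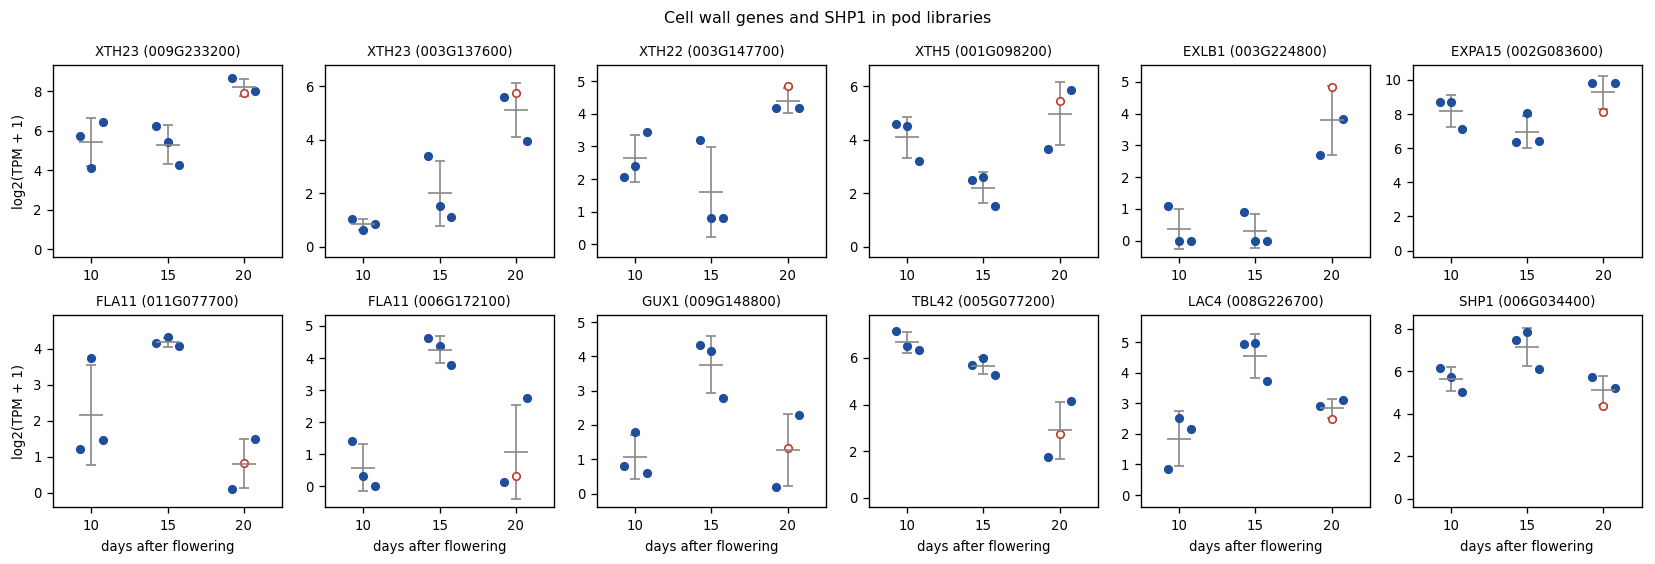
Each panel gives 1 gene as log2(TPM + 1), on deposited values, in the 3 pod libraries at 10, 15 and 20 DAF, with horizontal marks for the mean and bars for the SD; the open red point is replicate 2 of 20 DAF. The upper row rose from 15 to 20 DAF, EXLB1 from near 0, and the lower row fell, with FLA11, GUX1 and LAC4 highest at 15 DAF.

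The 10 DAF pods put some of these changes in a time course, with the caution that the 15 DAF libraries enter both steps. The first FLA11 copy had means (± SD, n = 3) of 5.18 ± 6.28 TPM at 10 DAF, 17.1 ± 1.60 TPM at 15 DAF and 0.891 ± 0.868 TPM at 20 DAF, and the second 0.63 ± 0.886, 18.7 ± 5.45 and 2.02 ± 3.22 TPM. GUX1 had a mean of 1.23 ± 1.06 TPM at 10 DAF, 13.9 ± 6.94 TPM at 15 DAF and 1.87 ± 1.92 TPM at 20 DAF. LAC4 had 3.02 ± 2.03, 24.1 ± 10.4 and 6.22 ± 1.50 TPM in the same order. All 4 were thus at their highest mean at 15 DAF. XTH5 (Phvul.001G098200) and EXO showed the reverse order, with stage means of 17.7 ± 8.16, 3.86 ± 1.71 and 37.0 ± 23.2 TPM for XTH5 and 59.2 ± 37.4, 8.69 ± 6.68 and 62.3 ± 25.1 TPM for EXO. TBL42 stepped down at both intervals, from a mean of 103 ± 33.5 TPM at 10 DAF to 50.3 ± 12.6 and then 8.32 ± 7.57 TPM.

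Antenna proteins, which gather light for photosynthesis, were lower at 20 DAF in part of the libraries. Of 28 light-harvesting genes tested, 4 fell and none rose on deposited values, 5 fell after scaling, and 0 were called by limma without replicate 2 of 20 DAF, where 6 were lower at an unadjusted p under 0.05. In that fit 2680 of all 17208 genes were under this p, in either direction. The summed level of all matched members was 17218, 13908 and 7652 TPM at 15 DAF and 8501, 3453 and 10985 TPM at 20 DAF. Replicate 2 of 20 DAF was the lowest, and replicate 3 of 15 DAF lay below 2 of the later libraries as deposited. After scaling, the 3 earlier sums were 13609, 14023 and 14013 and the later ones 7481, 3251 and 9372, so the stages no longer overlapped. The median log2 difference was -0.80 (scaled -1.12, and -0.33 without replicate 2), and after scaling none of the 28 had a positive difference.

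LHCB3 (Phvul.005G085800), an antenna protein of photosystem II, had 192, 218 and 160.5 TPM at 15 DAF and 63.8, 17.2 and 75.4 TPM at 20 DAF. All later libraries were lower, replicate 2 most, with a log2 difference of -2.08 ± 0.53 (adjusted p = 0.044, and 0.18 without replicate 2). Other antenna genes that fell were 3 copies of LHCB1. The most abundant (Phvul.002G154500) had 28.5, 40.2 and 34.2 TPM and then 4.75, 3.55 and 13.4 TPM (log2 difference -2.28 ± 0.50, adjusted p = 0.021, and 0.08 without replicate 2). The other two were Phvul.002G154700, with a log2 difference of -2.26 ± 0.56, and Phvul.004G093194, with -1.88 ± 0.42. The reaction centre subunit PSBX (Phvul.009G228600) went from 77.7, 125 and 79.0 TPM to 34.8, 12.9 and 47.3 TPM (log2 difference -1.68 ± 0.43, adjusted p = 0.044, and 0.18 without replicate 2). These 5 calls were lost without replicate 2 or 3 of 15 DAF as well (and Phvul.002G154500, Phvul.002G154700 and PSBX also without replicate 1 of 20 DAF, up to 0.079), where the adjusted p ran from 0.0542 to 0.15. Among 55 photosystem genes 2 fell and none rose (median -0.32, scaled -0.65), against 1 fall and a median of 0.02 without replicate 2 of 20 DAF, and none of 11 carbon fixation genes passed limma's test (0 at an unadjusted p under 0.05 as deposited, and 1, lower, after scaling). Senescence-associated genes gave 1 rise among 21 (0 after scaling). None of 27 papain-type proteases, which include SAG12-like enzymes, passed limma's test, and 2 were higher at an unadjusted p under 0.05. Over all 17208 genes tested, 3399 were under this p as deposited and 3334 after scaling, in either direction.

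Some sugar transport and energy genes rose. Of 25 genes for sucrose cleavage and sugar transport, 5 rose, all described as transporters (SUC2 or MtN3 type), and none fell on deposited values, 3 rose and 1 fell after scaling, and 3 rose without replicate 2 of 20 DAF. Their median was 0.67 (scaled 0.47), above that of all genes tested on both scales. SUC2 loads sucrose into the phloem in Arabidopsis. The most abundant SUC2 (Phvul.007G088200) had 237, 136 and 76.9 TPM at 15 DAF and 678, 354 and 487 TPM at 20 DAF. The stages did not overlap, and the log2 difference was 1.84 ± 0.39 (adjusted p = 0.016), but the adjusted p rose to 0.0507 and 0.061 without replicates 2 and 3 of 15 DAF and to 0.058 without replicate 1 of 20 DAF. A second copy (Phvul.004G085500) went from 20.1, 18.1 and 14.2 TPM to 59.6, 98.4 and 64.0 TPM, without overlap of the stages and with a log2 difference of 2.00 ± 0.31 (adjusted p = 0.0019). Its neighbour in the identifiers, Phvul.004G085594, had a log2 difference of 1.75 ± 0.30 (adjusted p = 0.0047). The last 2 held in every leave-one-out fit. On scaled values without replicate 2 of 20 DAF neither was called (adjusted p = 0.067 for Phvul.004G085500 and 0.09 for Phvul.004G085594). The sucrose synthase SUS4 (Phvul.003G127500), which splits sucrose, had 423, 602 and 309.9 TPM and then 122, 213 and 244 TPM. Every later library was below every earlier one. The log2 difference was -1.21 ± 0.37 (adjusted p = 0.093), not a call on deposited values, and -1.56 ± 0.33 after scaling (adjusted p = 0.017), the list's 1 fall on that scale.

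KIN10 (Phvul.008G039500) is described as a catalytic subunit of SnRK1, the kinase that responds to low energy. It had 11.5, 5.90 and 1.39 TPM at 15 DAF and 98.3, 39.9 and 53.6 TPM at 20 DAF. Replicate 1 was highest at both stages, every later library exceeded every earlier one, and the log2 difference was 3.36 ± 0.49 (adjusted p = 0.0014, scaled difference 3.10 ± 0.45). A regulatory partner, SNF4 (Phvul.006G091100), rose from 55.7, 40.9 and 25.7 TPM to 145, 68.0 and 109 TPM (log2 difference 1.38 ± 0.34, adjusted p = 0.035). Phosphoenolpyruvate carboxykinase (Phvul.002G139200), a step of gluconeogenesis and of amino acid breakdown, rose from 46.5, 42.0 and 19.5 TPM to 133, 67.6 and 106 TPM (log2 difference 1.52 ± 0.37, adjusted p = 0.037). KIN10 held in every leave-one-out fit. The mean of this KIN10 gene was 1.14 ± 1.52 TPM in 10 DAF pods and at most 0.272 TPM in grain at 15 and 20 DAF. Levels of other genes for this subunit are not given here. The calls of SNF4 and phosphoenolpyruvate carboxykinase were lost without replicates 2 or 3 of 15 DAF and replicates 1 or 3 of 20 DAF, with adjusted p up to 0.12 and 0.13.

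Of 25 starch genes, 1 was called lower and none higher on deposited values. This was BAM5 (Phvul.011G107700), a beta-amylase, which releases maltose from starch. It had 262, 715 and 290.0 TPM at 15 DAF and 21.3, 27.2 and 176 TPM at 20 DAF. Replicate 3 of 20 DAF kept the most, still below every earlier library, and the log2 difference was -2.98 ± 0.57 (adjusted p = 0.0076), which held in every leave-one-out fit. APL3 (Phvul.011G044000), the large subunit of the enzyme that makes ADP-glucose for starch, went from 72.8, 113 and 78.3 TPM to 10.6, 7.78 and 54.0 TPM (log2 difference -2.30 ± 0.60, adjusted p = 0.0485, and 0.17 without replicate 2 of 20 DAF). Its adjusted p was also above the threshold without replicate 2 of 15 DAF (0.15), replicate 3 of 15 DAF (0.12) and replicate 1 of 20 DAF (0.12). The description terms that define the starch list do not match APL3, which is therefore not counted in it, in which 16 of 25 members had a positive log2 difference on deposited values (median 0.09). After scaling 5 fell and none rose (median -0.22).

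Nitrogen genes gave 2 rises among 45 tested, 1 after scaling and 2 without replicate 2 of 20 DAF (median 0.64, scaled 0.32). UPS2 (Phvul.003G042700) is a ureide permease, of the family that moves allantoin, a nitrogen carrier of nodulated beans. It went from 3.24, 1.47 and 0.256 TPM to 76.9, 16.3 and 10.96 TPM. Replicate 1 led at both stages, the stages did not overlap, and the log2 difference was 3.42 ± 0.51 (adjusted p = 0.0015), which held in every leave-one-out fit. A nodulin MtN21-type transporter (Phvul.008G164000), from a family with amino acid exporters in Arabidopsis, rose from 0.105, 0.214 and 0.298 TPM to 11.4, 30.9 and 29.5 TPM, a log2 difference of 4.25 ± 0.55 (adjusted p = 0.00048). It also held in every such fit. The nitrate reductase NIA1 (Phvul.009G121000) had 7.80, 8.44 and 16.9 TPM and then 94.8, 128 and 352 TPM, and its adjusted p of 0.043 passed the threshold in 1 of the 6 leave-one-out fits, that without replicate 1 of 20 DAF, with values up to 0.12 in the rest. The NIA1 call was also lost after scaling (adjusted p = 0.094). An amino acid permease (Phvul.008G177000) went from 4.08, 1.58 and 0.855 TPM to 6.98, 24.8 and 5.41 TPM (adjusted p = 0.028, and 0.11 without replicate 2 of 20 DAF, 0.088 without replicate 2 and 0.12 without replicate 3 of 15 DAF). The ureide permease and this amino acid permease were the list's rises on deposited values, while NIA1 and the MtN21-type transporter lie outside its description terms.

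The lipoxygenase and jasmonate list was divided. Of 36 genes tested 5 rose and 4 fell on deposited values, 5 rose and 6 fell after scaling, and 2 rose and 4 fell without replicate 2 of 20 DAF (median 0.48, scaled 0.16). Genes described as enzymes of the plastid route to jasmonate did not move as one. LOX2 (Phvul.011G056500), which opens that route in Arabidopsis, had 97.2, 34.4 and 16.7 TPM at 15 DAF and 422, 156 and 617 TPM at 20 DAF, and all later libraries were above the earlier ones (log2 difference 3.13 ± 0.58, adjusted p = 0.0069). Of 4 genes described as allene oxide synthase (AOS), the next enzyme, the least abundant (Phvul.009G061325) rose from 0.416, 2.90 and 0.203 TPM to 16.6, 8.43 and 12.3 TPM (log2 difference 2.79 ± 0.39, adjusted p = 0.001). LOX2 and this gene held in every leave-one-out fit. The abundant AOS genes were not called. Phvul.011G049600 had 211, 233 and 79.8 TPM and then 176, 84.9 and 329 TPM (log2 difference 0.11 ± 0.48, scaled -0.24 ± 0.40, adjusted p = 0.91). Phvul.003G010700 had 173, 132 and 41.6 TPM and then 77.2, 40.5 and 151 TPM (log2 difference -0.33 ± 0.57, scaled -0.68 ± 0.52, adjusted p = 0.75). The stages overlapped in both. The fourth, Phvul.001G017800, had a log2 difference of 0.98 ± 0.49 (adjusted p = 0.27). The cyclase AOC3 (Phvul.003G111500), which acts after AOS, had 43.8, 49.1 and 21.5 TPM and then 13.7, 27.8 and 15.0 TPM, and fell after scaling (log2 difference -1.30 ± 0.29, adjusted p = 0.019) but not on deposited values (adjusted p = 0.14). The reductases described as OPR2 (Phvul.002G042900 and Phvul.003G264000) and the repressor JAZ6 (Phvul.010G127400) had log2 differences of 1.93 ± 0.46, 1.55 ± 0.40 and 1.62 ± 0.39 with adjusted p of 0.031, 0.0488 and 0.035. Without replicate 2 of 20 DAF those became 0.079, 0.2 and 0.12. All 3 also lost the call without replicates 2 or 3 of 15 DAF (adjusted p up to 0.19), Phvul.002G042900 without replicate 1 of 20 DAF (0.075) and JAZ6 without replicate 3 of 20 DAF (0.0534).

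Of 6 genes described as LOX1, a lipoxygenase outside the jasmonate route in Arabidopsis, 3 fell and none rose. The first (Phvul.005G156900) went from 23.1, 100.4 and 18.0 TPM to 1.94, 3.59 and 8.78 TPM, with replicate 2 highest at 15 DAF (log2 difference -2.82 ± 0.52, adjusted p = 0.0064). The second (Phvul.010G135900) went from 19.8, 10.6 and 5.81 TPM to 0.6, 0.776 and 2.97 TPM (log2 difference -2.40 ± 0.36, adjusted p = 0.0017). Its neighbour in the identifiers, Phvul.010G135800, went from 44.9, 30.4 and 18.0 TPM to 4.77, 6.17 and 12.6 TPM (log2 difference -1.87 ± 0.35, adjusted p = 0.0073). The jasmonate methyltransferase JMT (Phvul.003G255801), which makes methyl jasmonate, fell from 33.7, 25.1 and 15.8 TPM to 2.04, 1.93 and 8.88 TPM (log2 difference -2.48 ± 0.47, adjusted p = 0.0073). In each of these 4 genes the stages did not overlap, replicate 3 was the highest of the later libraries, and the call held in every leave-one-out fit. At 10 DAF the first LOX1 had a mean of 475 ± 256 TPM and the other two 3.22 ± 1.12 and 11.1 ± 3.66 TPM.

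Isoprenoid genes moved both ways. DXR (Phvul.010G023000), which commits carbon to the plastid isoprenoid pathway, had 9.61, 0 and 0.319 TPM at 15 DAF and 114, 26.9 and 26.5 TPM at 20 DAF. The early signal lay almost wholly in replicate 1, and replicate 1 also led later. The mean of this gene was 0.139 ± 0.241 TPM in 10 DAF pods and at most 0.0647 TPM in grain at 15 and 20 DAF. Levels of other genes for the same enzyme are not given here. The log2 difference was 4.21 ± 0.62 (adjusted p = 0.0014) and held in every leave-one-out fit. Beta-carotene hydroxylase BCH1 (Phvul.007G074200), which makes xanthophylls, rose from 229, 117 and 45.6 TPM to 789, 329 and 403 TPM (log2 difference 2.13 ± 0.49, adjusted p = 0.026). ABA4 (Phvul.004G065900), needed for neoxanthin on the way to abscisic acid in Arabidopsis, rose from 1.27, 1.62 and 0.09 TPM to 7.21, 2.90 and 4.37 TPM (log2 difference 1.58 ± 0.33, adjusted p = 0.013). A terpene synthase described as TPS-CIN (Phvul.005G135000) was abundant, with 352, 197 and 86.4 TPM and then 937, 330.1 and 584 TPM, where replicate 2 of 20 DAF lay below replicate 1 of 15 DAF (log2 difference 1.63 ± 0.42, adjusted p = 0.0476). CPS1 (Phvul.001G152100), which opens gibberellin synthesis, fell from 22.9, 23.4 and 10.8 TPM to 0.287, 2.90 and 4.94 TPM (log2 difference -2.62 ± 0.49, adjusted p = 0.0073) and held in every such fit. BCH1 lost its call without replicates 2 or 3 of 15 DAF or replicate 1 of 20 DAF (adjusted p up to 0.11), ABA4 without replicate 1 of 20 DAF (0.0548), and TPS-CIN in 4 of the 6 fits, those without replicates 2 or 3 of 15 DAF and replicates 1 or 3 of 20 DAF (up to 0.19). Of 21 terpene and isoprenoid genes 2 rose and 1 fell on deposited values, and 2 rose and 3 fell after scaling. Of 12 abscisic acid genes 1 rose on either scale.

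**Figure D3:**
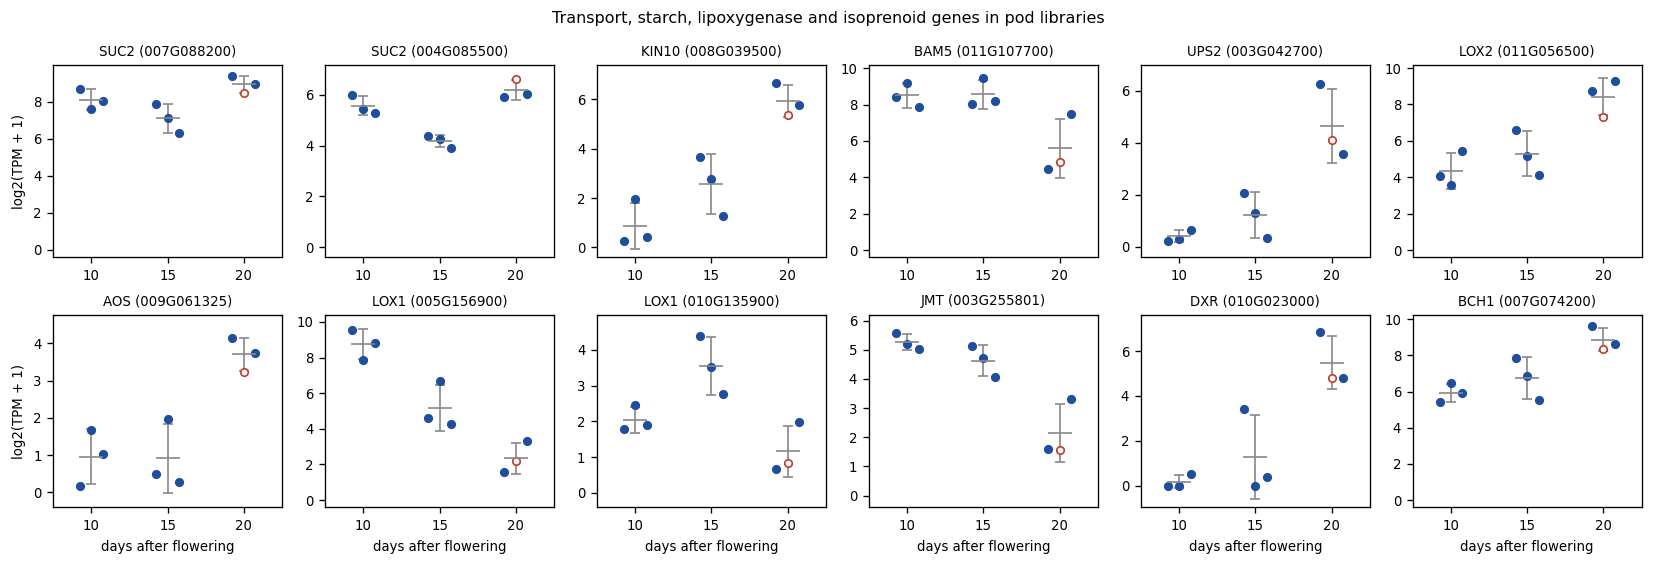
Each panel gives 1 gene as log2(TPM + 1), on deposited values, in the 3 pod libraries at 10, 15 and 20 DAF, with marks for the mean and bars for the SD; the open red point is replicate 2 of 20 DAF. SUC2, KIN10, UPS2, LOX2, AOS Phvul.009G061325, DXR and BCH1 were higher at 20 than at 15 DAF, and BAM5, both LOX1 copies and JMT were lower.

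Other genes that rose belong to none of the lists. The cytochrome P450 CYP71A24 (Phvul.002G226700) went from 2.46, 0.905 and 0.433 TPM to 26.6, 15.5 and 64.1 TPM (log2 difference 3.87 ± 0.40, adjusted p = 6.1e-05). A glutaredoxin family gene (Phvul.003G101900) rose from 0.417, 0 and 0.356 TPM to 8.16, 7.52 and 19.4 TPM (log2 difference 3.23 ± 0.30, adjusted p = 1.6e-05), and a thioredoxin family gene next to it in the identifiers (Phvul.003G102000) from 4.28, 1.80 and 4.03 TPM to 27.3, 18.5 and 108 TPM (log2 difference 3.22 ± 0.56, adjusted p = 0.0047). In both redox genes replicate 3 of 20 DAF was the highest library. A phosphorylase family gene (Phvul.009G108300) rose from 13.4, 8.58 and 2.99 TPM to 114, 120.1 and 38.8 TPM (log2 difference 3.32 ± 0.45, adjusted p = 0.00068). A FAD-dependent oxidoreductase (Phvul.009G102000) rose from 4.79, 1.71 and 2.25 TPM to 66.1, 17.9 and 40.4 TPM, and the subtilisin-type protease ARA12 (Phvul.002G152400) from 14.6, 0.131 and 0.146 TPM to 30.9, 51.0 and 15.2 TPM, with log2 differences of 3.34 ± 0.61 and 3.46 ± 0.64. All 6 held in every leave-one-out fit.

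The glycosyltransferase and P450 genes that follow were chosen after their values were seen, and their families were not counted. UGT73C2 (Phvul.001G182500) went from 9.25, 7.61 and 2.34 TPM to 61.0, 35.3 and 24.1 TPM (log2 difference 2.53 ± 0.38, adjusted p = 0.0016), and UGT73C1 (Phvul.001G182300) had a log2 difference of 2.06 ± 0.49 (adjusted p = 0.031, but 0.098 without replicate 3 of 15 DAF and 0.097 without replicate 1 of 20 DAF). CYP81D8 (Phvul.004G068400) rose from 4.12, 6.16 and 2.02 TPM to 31.1, 36.0 and 18.1 TPM (log2 difference 2.56 ± 0.41, adjusted p = 0.0025). Of 3 neighbouring genes described as CYP82C4, Phvul.009G061400 and Phvul.009G061450 had log2 differences of 1.68 ± 0.31 and 2.00 ± 0.39 and held in every leave-one-out fit. The abundant one, Phvul.009G061500, had 63.9, 19.2 and 6.17 TPM and then 132, 53.1 and 91.3 TPM, overlapping stages, and a call (adjusted p = 0.0459) lost without replicates 2 or 3 of 15 DAF and replicates 1 or 3 of 20 DAF (up to 0.2). The oleosin family gene Phvul.003G177800, a protein of the oil body surface, rose from 14.7, 4.53 and 2.25 TPM to 80.9, 60.3 and 30.3 TPM (log2 difference 3.04 ± 0.62, adjusted p = 0.012, but 0.0504 and 0.077 without replicates 2 and 3 of 15 DAF). All 7 oil body genes summed to between 15.0 and 61.7 TPM in the 15 DAF pods and to between 75.2 and 166 TPM in the 20 DAF pods, against 3105 to 4367 TPM and 7108 to 9135 TPM in grain of the same stages, and the part of seed RNA in this rise was not tested.

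Among described genes with at least 20 TPM at 15 DAF, the largest fall that passed on both scales and without replicate 2 was that of an acid phosphatase of the HAD superfamily (Phvul.010G144300), a class that includes vegetative storage proteins of legumes. It had 189, 2506 and 179.9 TPM at 15 DAF and 3.60, 19.3 and 91.9 TPM at 20 DAF. Replicate 2 of 15 DAF was far above the rest, and the later libraries were all lower, with a log2 difference of -4.43 ± 0.86 (adjusted p = 0.0086) that held in every leave-one-out fit. Other large falls were in the subtilisin-type protease AIR3 (Phvul.008G047700, log2 difference -2.12 ± 0.36), a DUF23 protein (Phvul.003G275200, -2.14 ± 0.37), an adenine nucleotide alpha hydrolase-like protein (Phvul.008G163500, -2.24 ± 0.44) and a GDSL-like lipase (Phvul.009G018200, -2.11 ± 0.38). Their adjusted p lay between 0.0036 and 0.0097, and they held in every such fit. A RING/U-box gene (Phvul.001G066700) went from 4.67, 23.5 and 49.2 TPM to 0.274, 2.51 and 2.33 TPM (log2 difference -2.96 ± 0.63, adjusted p = 0.016), a call lost without replicates 2 or 3 of 15 DAF or replicate 1 of 20 DAF (up to 0.093).

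Several undescribed genes were abundant and moved as much. Phvul.008G250300 rose from 50.1, 77.3 and 26.3 TPM to 704, 600.0 and 361 TPM (log2 difference 3.48 ± 0.56, adjusted p = 0.0025) and held in every leave-one-out fit. Phvul.007G255700 fell from 509, 853 and 225 TPM to 24.5, 23.6 and 55.1 TPM (log2 difference -3.82 ± 0.79, adjusted p = 0.013, but 0.065 without replicate 2 of 15 DAF), after a mean of 4.96 ± 1.53 TPM at 10 DAF. Phvul.011G204600 fell from 303, 2894 and 728 TPM to 14.8, 165 and 98.7 TPM, after a mean of 8853 ± 1175 TPM at 10 DAF (log2 difference -3.75 ± 0.86, adjusted p = 0.026, lost without replicates 2 or 3 of 15 DAF or replicate 1 of 20 DAF, up to 0.12).

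Regulators changed in small numbers. Of 47 WRKY factors 5 rose and none fell, 2 after scaling and 1 without replicate 2 of 20 DAF, with a median of 0.73 (scaled 0.48, and 0.46 without replicate 2 of 20 DAF). WRKY48 (Phvul.006G119100) was the member that rose in all 3 settings, from 2.48, 1.63 and 0.87 TPM to 4.72, 5.08 and 5.93 TPM (log2 difference 1.27 ± 0.27, adjusted p = 0.014), and it held in every leave-one-out fit. In limma's fit of the 9 pod libraries alone WRKY48 was not called (adjusted p = 0.16, scaled 0.061). WRKY15 (Phvul.003G240900) went from 31.0, 30.0 and 10.96 TPM to 58.3, 132 and 43.8 TPM, with replicate 2 highest (adjusted p = 0.0451, scaled 0.056, and 0.18 without replicate 2 of 20 DAF). Among 73 bHLH factors 3 rose and 4 fell, 2 and 5 after scaling. The bHLH Phvul.009G164300 rose from 17.8, 20.1 and 11.7 TPM to 196, 30.1 and 85.9 TPM (log2 difference 2.24 ± 0.46, adjusted p = 0.012, but 0.061 without replicate 3 of 15 DAF). The bHLH Phvul.007G045000 fell from 3.41, 3.64 and 2.68 TPM to 0, 0.324 and 0.458 TPM (log2 difference -1.76 ± 0.25, adjusted p = 0.0011), and EMB1444 (Phvul.001G159600) fell from 37.8, 26.8 and 28.7 TPM to 13.2, 4.32 and 8.76 TPM (log2 difference -1.81 ± 0.35, adjusted p = 0.0088). Both held in every leave-one-out fit.

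Of 98 AP2 and ethylene response factors 4 rose and 1 fell on deposited values, and 1 rose and 1 fell after scaling. The AP2-type factor Phvul.007G135900 rose from 1.13, 1.62 and 2.03 TPM to 13.3, 17.3 and 10.9 TPM (log2 difference 2.51 ± 0.32, adjusted p = 0.00048). ADAP (Phvul.008G253600), which responds to abscisic acid in Arabidopsis, fell from 2.08, 3.93 and 1.54 TPM to 0, 0.195 and 0 TPM (log2 difference -1.67 ± 0.31, adjusted p = 0.0066). Both held in every leave-one-out fit. The abundant bZIP44 (Phvul.009G005800) had 617, 358 and 283 TPM and then 1426, 1449.8 and 927 TPM, without overlap (log2 difference 1.64 ± 0.38, adjusted p = 0.026, and 0.083 without replicate 2 of 20 DAF). SPL4 (Phvul.006G183900), a squamosa-promoter-binding-like factor, had 918, 1065 and 669 TPM and then 175, 103 and 467 TPM (log2 difference -2.09 ± 0.53, adjusted p = 0.043, scaled 0.017), and passed in 1 of the 6 leave-one-out fits, that without replicate 3 of 20 DAF, with values up to 0.16 in the rest. bZIP44 passed in 2 of the 6 (up to 0.087) and WRKY15 in 2 (up to 0.19), in each case those without replicate 1 of 15 DAF or replicate 3 of 20 DAF. None of 35 NAC factors was called by limma on either scale, and at an unadjusted p under 0.05 there were 6 higher and 2 lower as deposited (median 0.55, scaled 0.23). Over all 17208 genes tested, 3399 were under this p as deposited, in either direction.

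Among hormone genes, ACS7 (Phvul.002G304904), which makes the ethylene precursor, fell from 16.0, 13.1 and 3.71 TPM to 1.88, 1.57 and 0.863 TPM (log2 difference -2.12 ± 0.43, adjusted p = 0.011, but 0.059 without replicate 2 of 15 DAF). It went against its list, as 5 of the 6 ethylene synthesis genes tested had a positive difference on deposited values (median 0.63, scaled 0.41). A gibberellin-regulated GASA-type peptide gene (Phvul.009G181500) had the large levels of 129, 254 and 677 TPM and then 1117, 1543 and 929 TPM (log2 difference 2.05 ± 0.49, adjusted p = 0.033). After scaling its stages overlapped and the adjusted p was 0.15, and without replicate 2 of 20 DAF it was 0.1. Its call was also lost without replicates 1 or 2 of 15 DAF and replicate 1 of 20 DAF (up to 0.1). This gene too went against its list. Of 8 gibberellin genes tested, 3 had a positive difference on deposited values (median -0.77, scaled -1.05). Of 88 auxin response and transport genes 1 rose on either scale and 3 fell after scaling. None of 43 core histones, 26 aquaporins, 52 heat shock proteins or 7 cytokinin genes was called by limma on deposited values or after scaling. At an unadjusted p under 0.05 these lists held 2, 1, 3 and 1 genes as deposited, and 9, 3, 6 and 1 after scaling. Over all 17208 genes tested the counts were 3399 and 3334. On deposited values 2 of 301 ribosomal protein genes were called (1 each way).

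**Figure D4:**
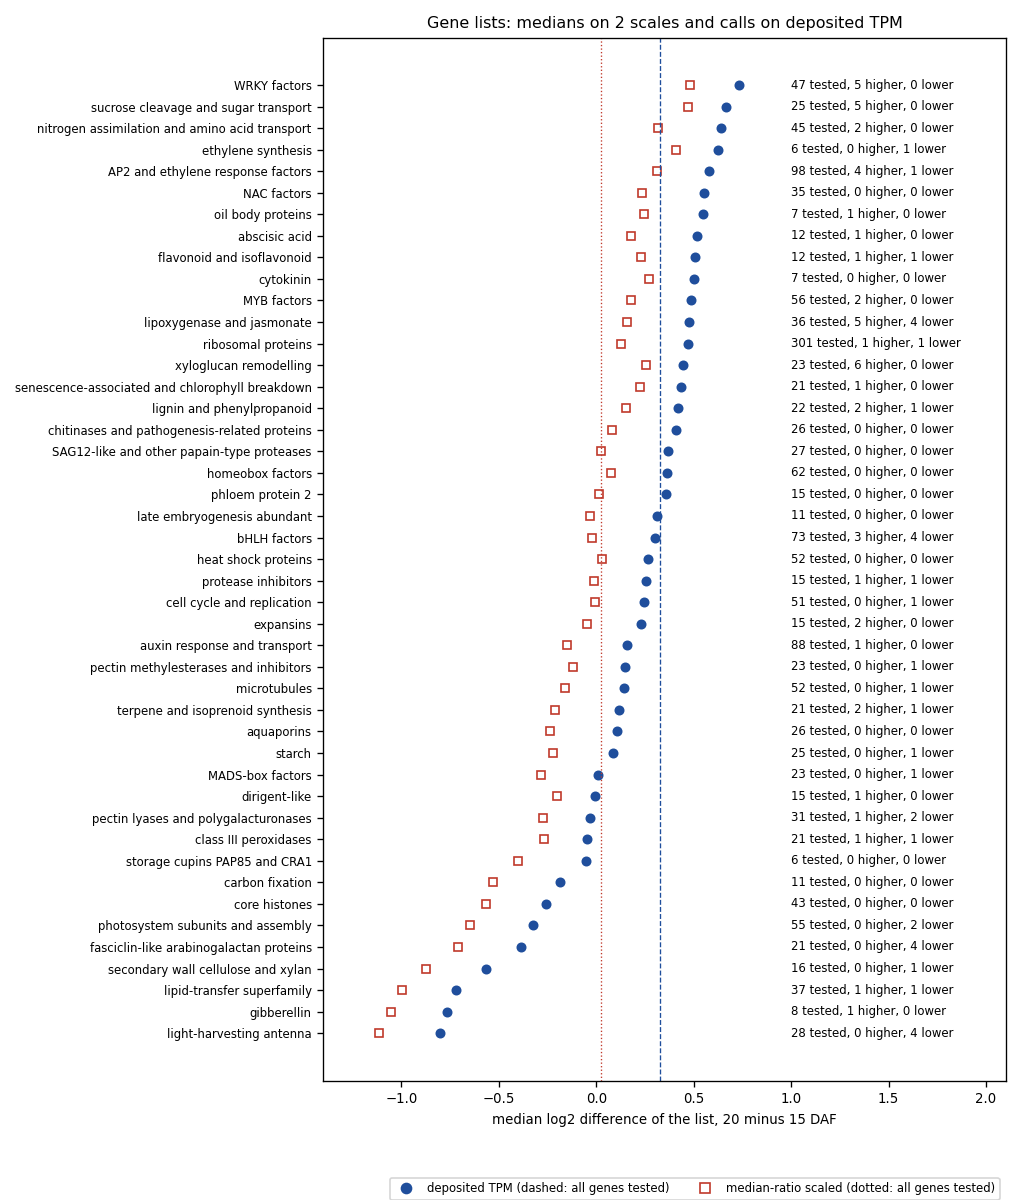
Median log2 difference of 20 minus 15 DAF for each of 45 gene lists, for deposited TPM (filled circles) and after median-ratio scaling (open squares), with the number tested and called on deposited TPM at the right; dashed and dotted lines mark the medians of all genes, 0.33 and 0.03. Light-harvesting, gibberellin, lipid-transfer, secondary wall and fasciclin-like genes lie lowest on both scales, and WRKY factors and sugar genes highest. Without replicate 2 of 20 DAF, a setting not drawn here, the order changed at both ends. Core histones (-0.32) then lay below gibberellin (-0.27) and fasciclin-like genes (-0.25), and oil body genes (0.98) above sugar genes (0.76) and WRKY factors (0.46).

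Some genes had much higher values in replicate 2 of 20 DAF than in any other pod library of these stages. CYP93D1 (Phvul.003G051700), of the P450 family that holds the legume isoflavone synthases, had 2.87, 3.27 and 0.554 TPM at 15 DAF and 13.4, 2297 and 64.5 TPM at 20 DAF. All later libraries were above the earlier ones, so the call (log2 difference 5.45 ± 1.03, adjusted p = 0.0073) remained without replicate 2, with a log2 difference of 3.38 (adjusted p = 0.0011). It was lost without replicate 3 of 15 DAF (adjusted p = 0.0527). A dirigent-like gene (Phvul.010G063900), of a family that guides the coupling of phenolic radicals, had 0.977, 3.26 and 0.151 TPM and then 8.13, 267 and 20.3 TPM (log2 difference 4.13 ± 0.76, and 2.71 without replicate 2). UGT84B1 (Phvul.007G039400) had 3.44, 0.434 and 0.364 TPM and then 14.1, 96.9 and 6.92 TPM (log2 difference 3.46 ± 0.63, and 2.41 without replicate 2). The last 2 held in every leave-one-out fit.

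Other genes were high in replicate 2 alone and were not called. Chalcone-flavanone isomerase (Phvul.007G008600), an early flavonoid enzyme, had 10.96, 16.3 and 3.45 TPM at 15 DAF and 9.77, 1487 and 20.4 TPM at 20 DAF (adjusted p = 0.18). A further pair of dirigent-like genes had 1181 TPM (Phvul.001G145600) and 1430.1 TPM (Phvul.010G063800) there, against at most 33.1 and 7.71 TPM in the other pod libraries of these stages. ACO4 (Phvul.008G213800), which forms ethylene, had 0.445, 1.66 and 0.169 TPM and then 0.427, 498 and 2.24 TPM. The senescence-associated SAG21 (Phvul.006G107900) had 71.5, 92.6 and 17.9 TPM and then 96.0, 1475 and 69.9 TPM. Apart from SAG21, these genes passed the test in the fit without replicate 1 of 20 DAF, with adjusted p between 0.00056 and 0.0465. By list, flavonoid genes summed to 958, 8002 and 828 TPM at 20 DAF, ethylene synthesis genes to 108, 2326 and 114 TPM, and WRKY factors to 1181, 2238 and 1012 TPM. Of the 20 DAF libraries it had the lowest sums of light-harvesting and aquaporin genes, 3453 and 5929 TPM.

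Some calls were lost without that library, and also without others. A lipid-transfer family gene (Phvul.006G078400) had 0.348, 20.2 and 0.356 TPM and then 10.9, 230.4 and 62.3 TPM, with overlap (adjusted p = 0.023, and 0.087 without replicate 2). An acyltransferase (Phvul.008G032200) had 4.36, 1.79 and 0.564 TPM and then 34.6, 92.0 and 4.18 TPM (adjusted p = 0.019, and 0.073 without it). The receptor-like kinase CRK29 (Phvul.007G048600) had 3.53, 1.84 and 0.487 TPM and then 12.4, 103 and 2.96 TPM (adjusted p = 0.043, and 0.099 without it). Chalcone synthase (Phvul.001G083000), the entry to flavonoids, moved the other way, with 187, 83.2 and 79.2 TPM and then 3.40, 5.12 and 52.7 TPM (log2 difference -3.26 ± 0.81, adjusted p = 0.038, and 0.12 without replicate 2). These calls were also lost without replicate 3 of 15 DAF (adjusted p from 0.084 to 0.2), the last 3 also without replicate 2 of 15 DAF (up to 0.097) or replicate 1 of 20 DAF (up to 0.12), and chalcone synthase without replicate 1 of 15 DAF (0.061). In all, 124 of the 253 higher and 68 of the 126 lower calls did not pass without replicate 2, and for 91 and 47 of these the extreme value was in it. Such losses were not particular to that library. Of the 379 calls, 187 were also made without it, against 181 and 183 without replicates 2 and 3 of 15 DAF. Without replicate 1 of 20 DAF 225 were also made, without replicate 3 of 20 DAF 322, and without replicate 1 of 15 DAF 344. What set replicate 2 of 20 DAF apart was not tested.

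**Figure D5:**
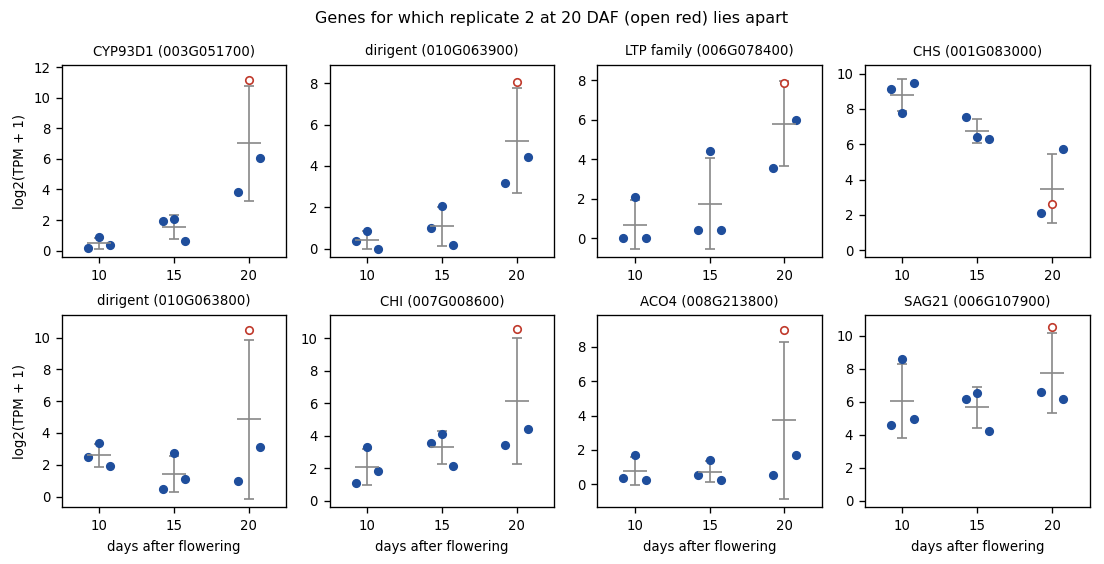
Each panel gives 1 gene as log2(TPM + 1), on deposited values, in the 3 pod libraries at 10, 15 and 20 DAF, with marks for the mean and bars for the SD; the open red point is replicate 2 of 20 DAF. That point lies far above the other 20 DAF libraries for the dirigent gene Phvul.010G063800, CHI, ACO4 and SAG21, while CYP93D1 was also higher in the other two than at 15 DAF.

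The same interval in grain served as a comparison. The change in pod minus the change in grain, tested as an interaction, passed for 40 genes with a larger value in pod (0.232%) and 13 with a smaller one (0.0755%). After scaling over all 18 libraries the counts were 32 and 47. Leaving out single pod libraries moved the total of 53 to between 14 (without replicate 3 of 15 DAF) and 1497 (without replicate 1 of 15 DAF), 16 without replicate 2 of 15 DAF, 112 without replicate 1 and 125 without replicate 2 of 20 DAF. Of the genes called between the pod stages, 21 higher and 8 lower also differed from grain in this test. CYP71A24 and the glutaredoxin gene passed it in every leave-one-out fit and after scaling, with differences of 3.70 ± 0.57 (adjusted p = 0.012) and 3.23 ± 0.42 (adjusted p = 0.0042). Their grain means were at most 0.132 TPM. FLA11 (Phvul.011G077700) and EXLB1 were below 0.1 TPM on average in grain at both stages, with differences of -3.41 ± 0.66 and 3.41 ± 0.59. UPS2 had grain means of 91.3 ± 18.4 TPM at 15 DAF and 60.0 ± 12.8 TPM at 20 DAF, above the pod at both stages, and its difference was 4.02 ± 0.73 (adjusted p = 0.028). The last 3 lost this call without replicates 2 or 3 of 15 DAF, with adjusted p up to 0.088, 0.072 and 0.08.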

How the data were processed

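RNA sequencing of bean pod and grain gave 18 libraries in 6 groups of 3. TRIzol extracts of total RNA, 1 µg each, entered a SMARTER mRNA kit, per the labels' protocols. The authors deposited TPM values per gene in 1 table with a description for each gene, mostly of its Arabidopsis match. Aligner, counting tool, genome build and treatment of shared reads: not given in the sources used here.

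Genes at 1 TPM or more in 3 or more of the 6 libraries compared were tested on log2(TPM + 1) with limma 3.58.1 in R 4.3.3, with 6 group means over all 18 libraries, an intensity trend, 12 residual degrees of freedom and Benjamini-Hochberg adjustment over all 17208 genes. The main scale is TPM as deposited. Median-ratio scaling divided each pod column by the median of its ratios to gene-wise geometric means, taken over 14394 genes that exceeded 1 TPM in all 9 pod libraries, and the factors of the 6 libraries ran from 0.546 to 1.27. An exact permutation test of 3 against 3 cannot go below p = 0.1, so none was used. The fit and the scaling were tested on simulated data. The simulated libraries of a gene had the same spread in all groups, so they cannot show what unequal spread between pod and grain does to the p-values.

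The 45 gene lists are search patterns on the descriptions, reworded after the descriptions had been read, and the AP2 pattern was corrected after values had been seen. The comparison, lists and rules were chosen with earlier results of these data known. Genes were named by 5 rules. The first took the 12 largest differences each way among described genes of at least 20 TPM called on both scales and without replicate 2 of 20 DAF, without overlap. Others took per list the largest called member each way of at least 5 TPM and the 3 most abundant members, the 6 largest calls each way lost without replicate 2 of 20 DAF, and the 10 largest called TPM differences each way. Of 105 genes with values in the text, 36 lie outside these rules and were chosen after their values were seen. They are the genes given as XTH22, XTH5, EXO, DUF579 (Phvul.001G262300), PSBX, ferulate 5-hydroxylase, SNF4, phosphoenolpyruvate carboxykinase, AOS Phvul.009G061325 and Phvul.001G017800, AOC3, OPR2, JAZ6, ABA4, WRKY48, EMB1444, ADAP, UGT73C1, UGT73C2, CYP82C4 and CYP81D8, the last 3 FLA11 copies, the third LHCB1 copy, SUC2 Phvul.004G085594, the amino acid permease, LOX1 Phvul.010G135900 and Phvul.010G135800, the glutaredoxin gene, bHLH Phvul.007G045000 and the undescribed Phvul.003G170800.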

Additional observations from a re-analysis of the deposited data

Results flagged for a closer look

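For 15 of the genes named above or here the change from 15 to 20 DAF differed between pod and grain by the interaction term of the limma fit. The pod-minus-grain difference in log2 change, with its adjusted p, was positive for 12 of them. It was 4.24 ± 0.77 for the MtN21-type transporter (adjusted p = 0.03), 4.13 ± 0.87 for DXR (0.048), 4.02 ± 0.73 for UPS2 (0.028) and 3.70 ± 0.57 for CYP71A24 (0.012). EXLB1 (3.41 ± 0.59, 0.025), the phosphorylase family gene (3.32 ± 0.63, 0.034) and the glutaredoxin gene (3.23 ± 0.42, 0.0042) followed. Allene oxide synthase Phvul.009G061325 stood at 2.82 ± 0.55 (0.038), SUC2 Phvul.007G088200 at 2.60 ± 0.56 (0.0498), UGT73C2 at 2.55 ± 0.54 (0.049), the AP2-type factor at 2.45 ± 0.46 (0.034) and the undescribed Phvul.003G170800 at 2.32 ± 0.49 (0.049). The last had 42.4, 28.4 and 14.2 TPM in pod at 15 DAF and 106, 114 and 78.4 TPM at 20 DAF.

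Negative differences were those of FLA11 Phvul.011G077700 at -3.41 ± 0.66 (adjusted p = 0.034), the DUF579 gene Phvul.001G262300 at -2.54 ± 0.52 (0.042) and the bHLH Phvul.007G045000 at -1.76 ± 0.36 (0.042). In grain the means of 11 of the 15 genes were below 0.4 TPM at both stages, and those of the MtN21-type transporter, UPS2, SUC2 and Phvul.003G170800 were between 3.07 and 230.3 TPM. For those 11 the difference from grain was therefore close to the pod change alone. After scaling over all 18 libraries the test was not passed for SUC2 (adjusted p = 0.13), DXR (0.064), the MtN21-type transporter (0.076) and the AP2-type factor (0.11). CYP71A24 and the glutaredoxin gene passed without each of the 6 pod libraries, and the other 13 did not pass without replicate 3 of 15 DAF.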

How the results depend on the processing

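The direction of 103 of the 105 named genes was the same in each of the 22 fits in which it was tested, while their calls depended on the setting. The exceptions, never called, were AOS Phvul.011G049600, at -0.24 after scaling (in 18, 9 and 6 libraries), -0.38 scaled without pod 15 DAF replicate 3, -0.29 with rescaled columns and -0.38 to 0.61 without single libraries, and AOS Phvul.003G010700, at -0.95 to 0.13 without single libraries. Of 95 called genes 52 passed in every leave-one-out fit, and at a pseudocount of 0.1 TPM calls over all genes fell to 82 higher and 70 lower. Calls higher and lower were 166 and 387 after median-ratio scaling, 188 and 485 with columns rescaled to the same sum, 69 and 46 in the 9 pod libraries alone and 433 and 208 in the 6 libraries alone. Scaled, they were 138 and 226 without pod 20 DAF replicate 2, and, in settings added after the data had been seen, 62 and 184 without pod 15 DAF replicate 3, 28 and 96 in the 9 pod libraries and 0 and 0 in the 6 libraries, where 2881 genes had an unadjusted p under 0.05. The unscaled fit of 6 libraries gave an infinite estimate of the prior degrees of freedom, and nothing rests on it. Leaving out each library gave 89 to 1167 higher, 46 to 205 lower, a median of 0.03 to 0.55, and 14 to 1497 differences between pod and grain, against 79 with scaling over 18 libraries. No minimum difference gave 254 and 127, no trend 249 and 122, no filter 187 and 91, 5 TPM 197 and 96, and a filter over 18 libraries 221 and 103. The median over all genes was 0.33, and 0.03 after scaling, which removes a general shift by construction.

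Same-numbered replicates of the stages had deviations correlated at 0.259, 0.134 and 0.060 across genes on deposited values, the scale of the tests, and at 0.238, 0.150 and 0.106 after scaling. As 1 of the first 3 was not over 0.1, the numbers were not taken to pair the samples, although all 3 scaled values were. Each correlated best with its own number, which is a hint from the data and not from the design. With the replicate number as a block in the 6 libraries, 294 genes were higher and 134 lower, and 229 of the 379 calls and 80 of the 95 calls of named genes were also made.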
